A study of Mus musculus with 64 samples.

Results

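Insertions of transposons were examined in 8 genes of the Ras and MAPK pathway, in mouse diffuse large B cell lymphomas (DLBCL) and in tails: Nf1, Rasa1, Rasa2, Nras, Braf, Sos1, Map2k1 and Rasgrp1. They were chosen by name from the gene column of the deposited insertion table, of which they held 372 of 385883 lines. After lines away from any motif were left out and lines of one sample at the same motif were merged, 365 insertions remained. These 8 genes are among 22541 genes with a PiggyBac motif and 23859 with a Sleeping Beauty motif.

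Ras proteins are molecular switches that are active when bound to GTP and inactive when bound to GDP. Exchange factors such as SOS1 and RASGRP1 load Ras with GTP, and Ras GTPase activating proteins such as neurofibromin (Nf1), RASA1 and RASA2 speed up the return to GDP. Active Ras recruits RAF kinases, which phosphorylate MEK, which in turn phosphorylates ERK. In lymphocytes the pathway lies downstream of the antigen receptor, and RASGRP1 couples it to diacylglycerol.

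The mice were of 2 kinds. PB mice carried the PiggyBac transposase, which inserts at TTAA, knocked in at Rosa26 together with an ITP transposon array, and SB mice carried the Sleeping Beauty transposase, which inserts at TA, in the same way with ITP1-C or ITP2-M. Both parents of the SB mice were Blm m3/m3, so by the cross all SB mice were Blm m3/m3, and the offspring included double and triple transgenic animals. For the PB mice the labels give only IMPB, and for the SB mice IMSB. The other alleles of a single animal, and the Blm alleles of the PB mice, are not given in the sources used here. All mice were on a mixed C57BL/6, 129Sv and FVB background, and the transposase was constitutive and not restricted to B cells. The 64 samples were 30 PB tumours and 11 SB tumours from lymphoid and other organs, and tails of 12 PB and 11 SB mice as the control tissue. Ages were not given in the sources used here. Insertion data hold no expression values, so the label DLBCL could not be compared with B cell markers, and nothing here shows whether an insertion changed a gene's product.

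The samples held between 757 and 10801 kept insertions (5230 ± 2526 in PB tumours, 4010 ± 1925 in PB tails, 3983 ± 2225 in SB tumours and 4617 ± 1495 in SB tails; mean ± SD). Median reads per sample lay between 104091 and 136578 in the 4 groups, but PB tumour 3, a spleen, had 5721846 reads and the most insertions of all samples. Results that rest on it are given with and without it.

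The insertion sites on which the results turn are shown here as 30 bases of GRCm38, in the direction in which the gene is transcribed and with the target motif in capitals. The first 4 are the most covered sites of Rasa1 and Rasa2 that a second sample also held. The next 2 are Nf1 sites hit in 3 PB tumours. The last 2, at TA, are sites of Nf1 and Rasa1 from SB tumours, with 37 and 43 reads. No SB tumour insertion of the same gene had more reads.
Rasa2 intron 19, chr9:96548297-96548326, minus strand: aagatgtatctttTTAAaagtacatgccat
Rasa2 intron 5, chr9:96583332-96583361, minus strand: tatgaatcagattTTAAgtaaaaccacaac
Rasa1 intron 9, chr13:85236197-85236226, minus strand: tccaagtgtctacTTAAaaaaaaaacctgt
Rasa1 intron 1, chr13:85267586-85267615, minus strand: tatctagagctttTTAAatgttttcttaga
Nf1 intron 5, chr11:79398588-79398617, plus strand: gaggagaaaggcaTTAAtgaggatcgcacc
Nf1 intron 36, chr11:79524890-79524919, plus strand: acacacagttcatTTAAagatgtaacccag
Nf1 intron 30, chr11:79459165-79459194, plus strand: gcatgtggtgcataTAcatacaatcaggca
Rasa1 intron 1, chr13:85263575-85263604, minus strand: tgtttgttccattgTAggtgctgagaattg

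The first question was whether a gene held more insertions than its target sites predict. The 3 genes for Ras GTPase activating proteins did so in PB tumours: Nf1 at 3.03 times, Rasa1 at 5.19 times and Rasa2 at 7.14 times the expected number. In SB tumours Nf1 and Rasa1 were called and Rasa2 was not. None of the 5 genes that carry the signal forward (Nras, Braf, Sos1, Map2k1, Rasgrp1) was called in any group, and no member was called in tails. The expected number was the gene's share of the motif sites of its chromosome, multiplied by the insertions on that chromosome, and a gene was called when a one-sided Wald test gave p below 0.05 after Bonferroni correction and at least 3 samples and 5% of the samples were hit. This expectation counts motifs and takes no account of chromatin, so the tails are given beside it. Counted as presence or absence per sample, the ratio of Nf1 in PB tumours fell to 1.57 and its call was lost. Both calls in SB were lost too (adjusted p = 1 for Nf1 and 0.944 for Rasa1). For Nf1 this setting could not have given a call. With 31.4 insertions expected over 30 PB tumours and 5.87 over 11 SB tumours, even a hit in every tumour falls short of the threshold. With Benjamini-Hochberg in place of Bonferroni, Map2k1 in PB tumours (adjusted p = 0.00865) and Rasa1 and Rasa2 in PB tails (adjusted p = 0.00124 and 0.0259) were called too. By the main rule 4.85% of all genes were called in PB tumours, 0.39% in SB tumours, 1.18% in PB tails and 0.189% in SB tails.

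**Figure D1:**
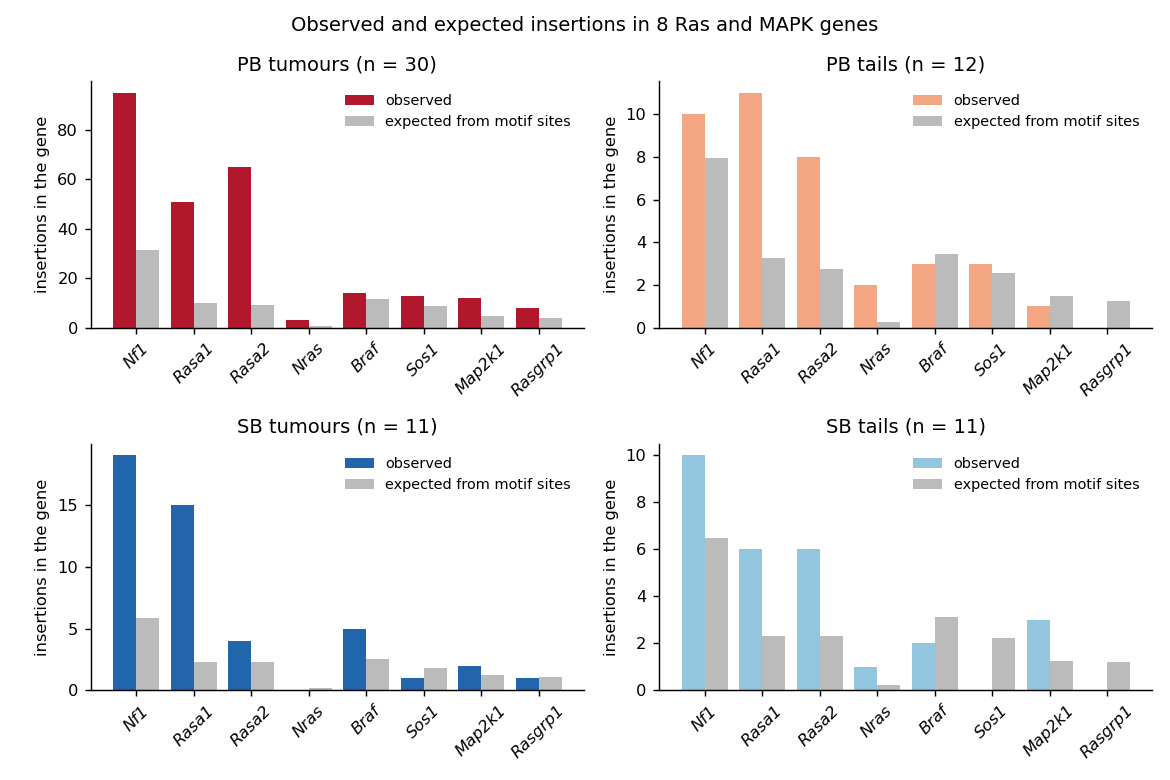
Insertions in each of 8 genes (x axis) summed over the samples of a group, with the observed number in coloured bars and the number expected from motif sites in grey bars; each panel has its own y axis. In PB tumours the bars of Nf1, Rasa1 and Rasa2 stand at 95, 51 and 65 against 31.4, 9.82 and 9.11 expected.

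Nf1 (chr11:79339892-79581609, plus strand, 58 exons) encodes neurofibromin, the tumour suppressor lost in neurofibromatosis. Per PB tumour it held between 0 and 12 insertions with a median of 3, per PB tail between 0 and 2 with a median of 0.5, per SB tumour between 0 and 4 with a median of 2, and per SB tail between 0 and 3 with a median of 1. The ranges of all 4 groups overlapped, and the highest value was that of PB tumour 3. In PB tumours 95 insertions were found where 31.4 were expected, a ratio of 3.03 with an exact Poisson 95% interval of 2.45 to 3.70 for counting error (adjusted p = 4.06e-23). They were spread over 28 of 30 tumours; PB tumour 13, which had only 757 kept insertions, and PB tumour 30, with 6133, had none. In SB tumours 19 insertions were found for 5.87 expected, in 9 of 11 tumours, a ratio of 3.24 with an interval of 1.95 to 5.05 (adjusted p = 0.00366). This call in SB was lost when SB tumour 2 (adjusted p = 0.532) or SB tumour 8 (adjusted p = 0.0701) was left out, and when p came from an exact Poisson test (adjusted p = 0.313). In tails the ratios were 1.26 (0.605 to 2.32) in PB and 1.54 (0.741 to 2.84) in SB.

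Rasa1 (chr13:85214699-85289486, minus strand, 25 exons) encodes p120 RasGAP. By the gene column it held 75 insertions, and its annotated body held 8 more that the table lists under the neighbouring gene Ccnh. Each PB tumour had between 0 and 7 by the gene column (median 1), each PB tail between 0 and 3 (median 0), each SB tumour between 0 and 5 (median 1) and each SB tail between 0 and 2 (median 0), so that the groups overlapped. The body held 51 insertions in PB tumours for 9.82 expected, in 22 of 30 tumours, a ratio of 5.19 with an interval of 3.87 to 6.83 (adjusted p = 6.94e-28). In SB tumours it held 15 for 2.29 expected, in 8 of 11 tumours, a ratio of 6.55 with an interval of 3.67 to 10.8 (adjusted p = 3.94e-09), and this call held when any one SB tumour was left out. PB tails had 11 for 3.24 expected (ratio 3.39, interval 1.69 to 6.07, adjusted p = 0.58) and SB tails 6 for 2.31 (ratio 2.59, interval 0.951 to 5.64).

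Rasa2 (chr9:96539300-96631503, minus strand, 24 exons) encodes a further GTPase activating protein of Ras. Its insertions numbered between 0 and 7 per PB tumour (median 1.5), 0 and 2 per PB tail (median 0.5), 0 and 2 per SB tumour (median 0) and 0 and 2 per SB tail (median 0). PB tumours alone exceeded 2, the most that any sample of the other groups had. The 65 insertions of PB tumours stood against 9.11 expected, in 23 of 30 tumours, a ratio of 7.14 with an interval of 5.51 to 9.10 (adjusted p = 1.72e-52). In SB tumours there were 4 for 2.29 expected, a ratio of 1.74 with an interval of 0.475 to 4.47 that holds both no excess and a large one. Tails were at 2.91 (1.26 to 5.73) in PB and 2.57 (0.944 to 5.60) in SB. Of the 8 insertions of PB tails 5 were at positions that other samples also held, and the ratio was 1.51 (0.412 to 3.87) with each such position counted only in the sample with the most reads and 1.20 (0.248 to 3.52) without these positions.

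**Figure D2:**
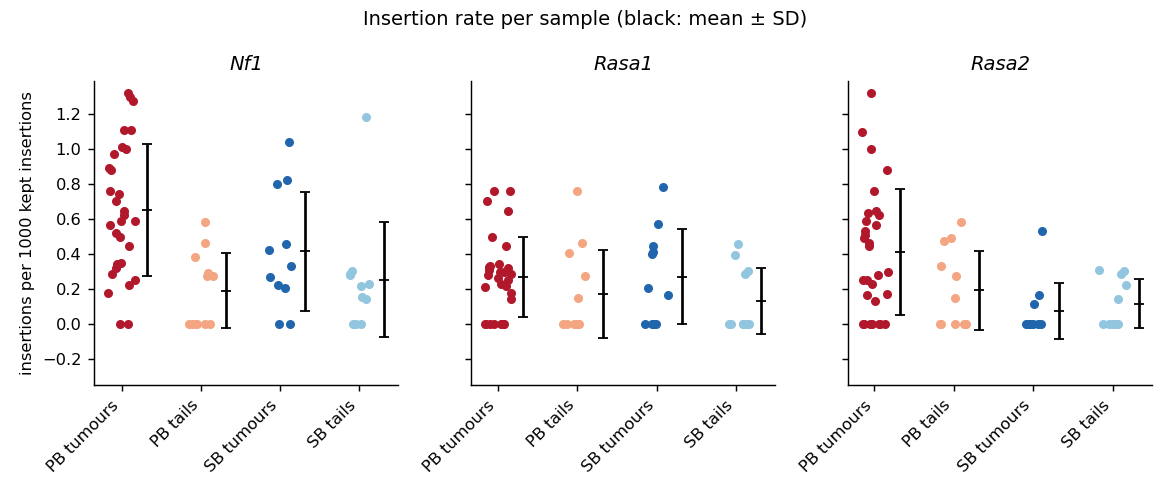
Insertions in Nf1, Rasa1 and Rasa2 per 1000 kept insertions (y axis) in each sample (points) of the 4 groups (x axis), with the mean and SD in black; samples without an insertion lie at 0. Mean rates of Nf1 were 0.65 in PB tumours and 0.189 in PB tails, and in each gene the points of tumours and tails overlap.

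Among the forward components, Map2k1 (MEK1, the kinase that phosphorylates ERK; chr9:64185769-64253605, minus strand) came nearest to a call. It had 12 insertions in PB tumours for 4.85 expected, in 10 of 30 tumours and with at most 2 in any, and the ratio was 2.47 with an interval of 1.28 to 4.32 (adjusted p = 1). All but 1 of the 12 lay in intron 1, which holds 64.4% of the gene's TTAA sites. Rasgrp1 (chr2:117279983-117342877, minus strand), the exchange factor of lymphocytes, had 8 for 3.98 expected in 6 PB tumours, none in PB tails (0 for 1.25 expected, which allows a ratio of up to 2.94) and 1 in SB tumours. Sos1 (chr17:80393752-80480453, minus strand), the exchange factor recruited by receptor tyrosine kinases, had 13 for 8.90 in 12 PB tumours. The body of Braf (chr6:39603237-39725463, minus strand), the RAF kinase that activates MEK, had 14 for 11.4 in 10 PB tumours, 1 of them listed under Ndufb2. Nras (chr3:103058285-103067914, plus strand), the Ras protein itself and the smallest of the 8 genes, had 3 for 0.818 expected in 3 PB tumours and 2 in PB tails. It has 74 TTAA sites, and its ratio of 3.67 had an interval of 0.756 to 10.7, which includes 1.

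Over the 8 members the median ratio of observed to expected insertions in PB tumours was 2.75, beside 0.725 over all genes and 1.18 over the 11352 genes with at least 0.8 insertions expected. All 8 ratios were above 1, as were those of 44.1% of all genes. Each of the 8 members had at least 0.8 insertions expected in PB tumours. Among all genes with that many expected, whose median was 1.18, most ratios were above 1 too. The members' medians in PB tails, SB tumours and SB tails were 1.21, 1.67 and 1.95, and the medians over all genes were 0 there because most genes had no insertion. Over the genes with at least 0.8 insertions expected they were 1.11, 1.05 and 1.04.

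Single tumours often carried insertions in several members. All 3 GTPase activating protein genes were hit in 19 of 30 PB tumours, 1 of 12 PB tails, 2 of 11 SB tumours and 1 of 11 SB tails. PB tumour 15, a throat lymph node with 9016 kept insertions, was hit in all 8 members. The median number of members hit was 4 in PB tumours, 2 in PB tails, 3 in SB tumours and 2 in SB tails, and samples without any hit were 1 PB tail, 1 SB tumour and 1 SB tail. Depth differed between samples and its part in these numbers was not tested. Whether hits in the same sample were in the same cells cannot be read from bulk DNA.

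**Figure D3:**
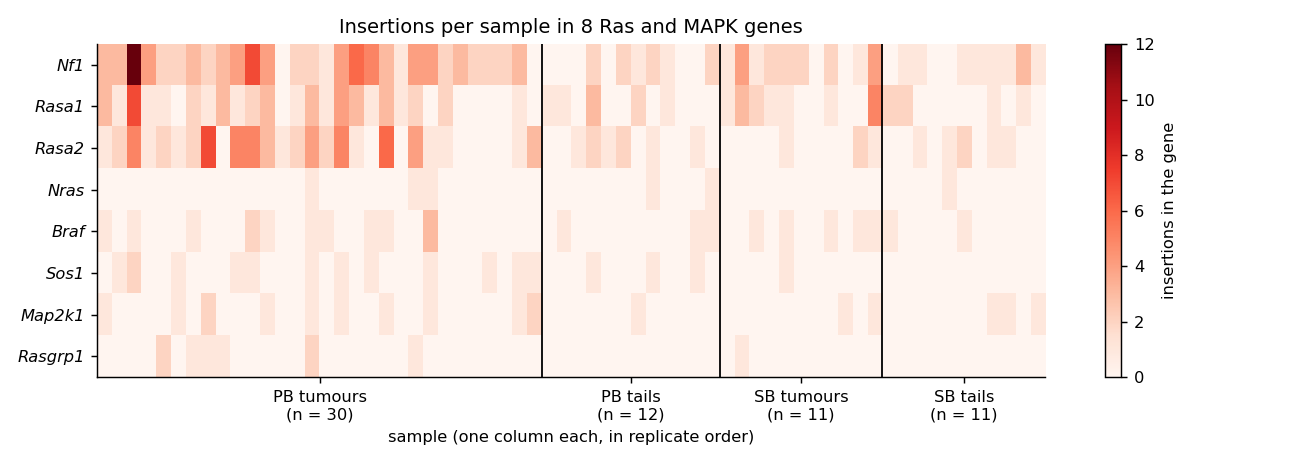
Number of insertions (colour scale) in each of 8 genes (rows) and each of 64 samples (columns, grouped and separated by black lines). Nf1, Rasa1 and Rasa2 are hit in 28, 22 and 23 of 30 PB tumours, and the darkest cell is Nf1 in PB tumour 3 with 12 insertions.

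The second question was whether tumours and tails differed, which sets the tumours against the insertion preferences seen in normal tissue. Nf1 was the only member whose insertion rate in PB tumours passed the test as higher than in PB tails. Its rate was 0.65 ± 0.377 insertions per 1000 kept insertions in PB tumours (SD, n = 30) and 0.189 ± 0.215 in PB tails (SD, n = 12), a log2 fold change of 1.46 (SE 0.456; edgeR quasi-likelihood test, Benjamini-Hochberg adjusted p = 0.0381). Among the 3371 genes tested 2.02% were called higher in tumours. The Nf1 call stood near the threshold: it was lost without PB tumour 3 (adjusted p = 0.0505), without the positions of several samples described below (adjusted p = 0.154) and without any one of PB tails 1, 2, 3, 4, 5, 10 and 11 (adjusted p between 0.0517 and 0.103), and in a model with the form of the sample name, joined or separated, as a covariate (adjusted p = 0.0548). By presence alone, 28 of 30 PB tumours and 6 of 12 PB tails were hit (Fisher's exact test, two-sided p = 0.00361, adjusted p = 0.229).

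The other members did not pass that test. Rasa2 had 0.411 ± 0.359 insertions per 1000 in PB tumours and 0.192 ± 0.228 in PB tails, with a log2 fold change of 1.18 (SE 0.499, edgeR adjusted p = 0.146). The body of Rasa1 was at 0.47 on the log2 scale (SE 0.478, edgeR adjusted p = 0.628), and Map2k1 at 1.14 (SE 0.691, edgeR adjusted p = 0.439). Braf and Sos1 were at 0.37 and 0.31, and Nras and Rasgrp1 had fewer than the 10 insertions needed. In SB mice no member was called, beside 0.708% of 1130 genes called higher in tumours. There the log2 fold change was 1.01 for Nf1 (SE 0.563, edgeR adjusted p = 0.589), 1.30 for Rasa1 (SE 0.63, edgeR adjusted p = 0.475) and -0.30 for Rasa2 (SE 0.719, edgeR adjusted p = 0.934), and the other 5 members had too few insertions.

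The fold changes of the systems were compared directly. A test of the interaction of system and tissue gave -1.47 on the log2 scale for Rasa2 (SE 1.01, edgeR adjusted p = 0.623), -0.45 for Nf1 (SE 0.813) and 0.84 for Rasa1 (SE 0.795). No gene of 4370 was called (0%, with 410 at unadjusted p below 0.05 in edgeR and 0 called by DESeq2), so a difference between PB and SB was not shown for any member.

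Insertions in Nf1 were not spread evenly along the gene in PB tumours. Intron 36 held 46 of 95 (48.4%) in 24 tumours but has 24.9% of the gene's TTAA sites. Of these, 31 lay in the span of Evi2 (chr11:79513385-79530609), a locus first known as a viral integration site in leukaemia, which sits inside this intron on the opposite strand together with Evi2a and Evi2b. The span of Evi2 held 31 insertions for 2.26 expected in PB tumours, 2 for 0.572 in PB tails, 2 for 0.415 in SB tumours and 3 for 0.458 in SB tails. An insertion there cannot be assigned to Nf1 or to Evi2 from its position. Together with Omg and AU040972, the nested genes took 36 of the 95 insertions, 37.9%, with 9.96% of the sites.

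Outside the nested genes Nf1 still held 59 insertions for 28.3 expected in PB tumours, a ratio of 2.09 with an interval of 1.59 to 2.69 (adjusted Wald p = 0.000175). In SB tumours the ratio was 3.0, with 16 insertions, but was no longer called (adjusted p = 0.131). Neither was the difference between PB tumours and tails, at a log2 fold change of 1.26 (SE 0.519, edgeR adjusted p = 0.131). Intron 36 held 5 of the 19 Nf1 insertions of SB tumours, 26.3% for 24.3% of the TA sites. Intron 1 held 6 of those 19 and 13 of the 95 in PB tumours.

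**Figure D4:**
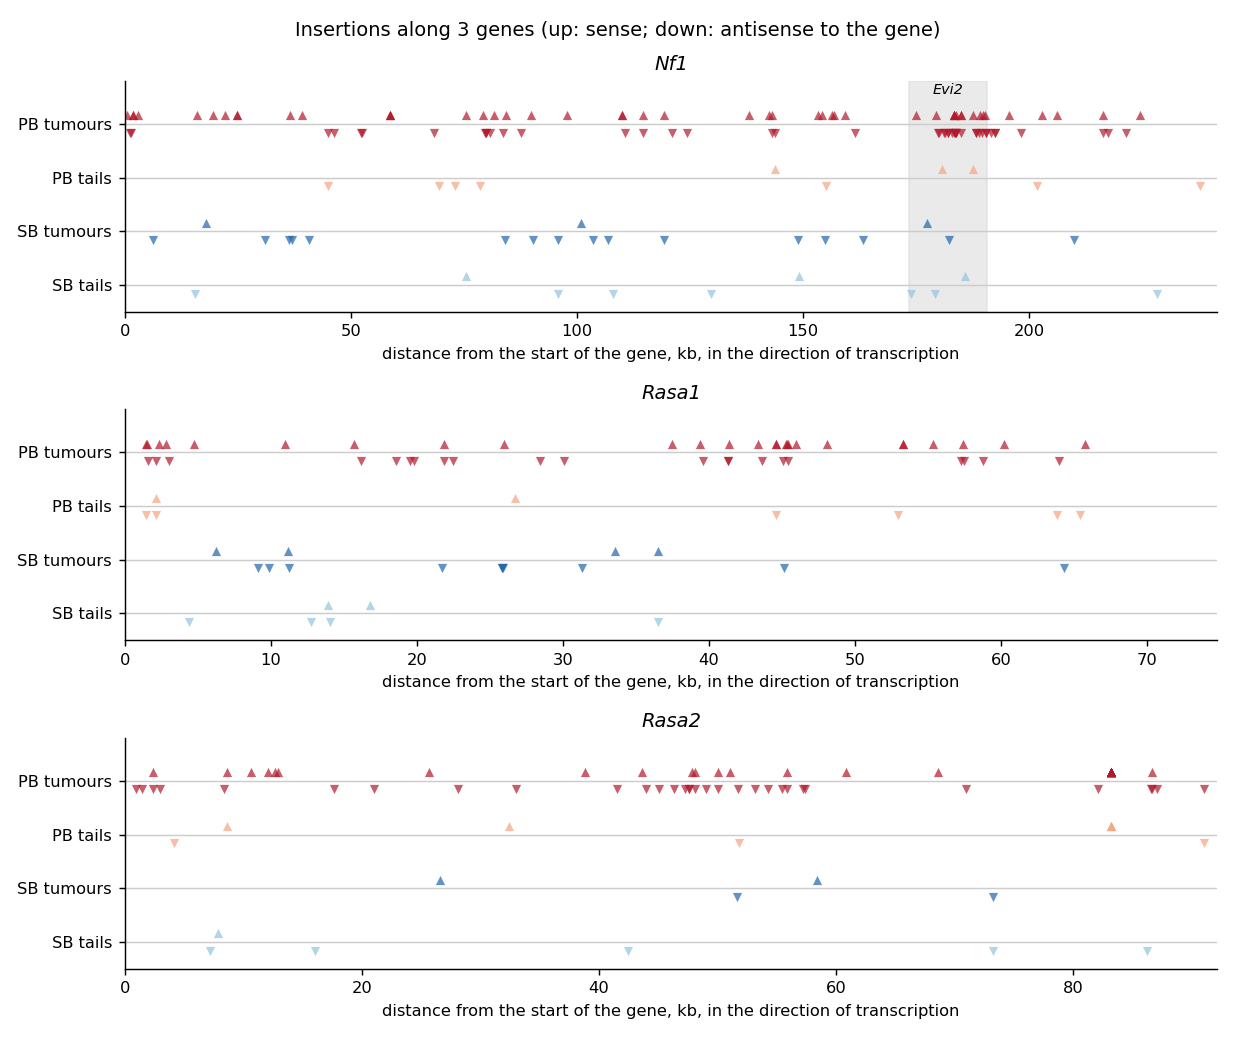
Insertions along Nf1, Rasa1 and Rasa2 (x axis, distance in kb from the start of the gene) in the 4 groups (rows); triangles pointing up are in the sense of the gene and those pointing down antisense, and darker triangles are several samples on top of each other. The grey band is the span of Evi2, with 31 of the 95 Nf1 insertions of PB tumours, and the dark triangle near the end of Rasa2 is one position shared by 16 PB tumours and 3 PB tails.

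Nearly all member insertions were intronic: 353 of 365, with 6 in coding exons and 6 in exons outside the coding part. In Rasa1, intron 1 held 20 of 47 gene column insertions in PB tumours, 42.6% for 33.4% of the TTAA sites, and 9 of 14 in SB tumours, 64.3% for 37.4% of the TA sites. In Rasa2, intron 5 held 11 of 65 in PB tumours in 8 tumours (16.9% for 7.74% of the sites), and intron 19 held 17 of 65 in 16 tumours (26.2% for 8.72%). These shares were noticed in the data and were not tested.

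The intron 19 share of Rasa2 came from 1 position, chr9:96548310-96548313, the first of the sequences shown above. It was listed in 16 PB tumours and 3 PB tails, always in the sense of the gene. PB tumour 3 had 57873 reads there, 1.03% of its reads, and the other 18 samples had between 2 and 14 reads (median 3). Of the 50 most covered insertions of PB tumour 3, 26 were at positions that other samples also held, and in the other 29 PB tumours that number lay between 0 and 33 (median 7). The same pattern was seen once in Rasa1, where chr13:85236210-85236213 had 72368 reads in PB tumour 3 and 2 reads in PB tumour 22. Of all kept insertions in PB tumours, in genes or not, 9.0% were at positions of several samples, and of the Rasa2 insertions 28 of 65 were.

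Counted only in the sample with the most reads, each such position once, Rasa2 kept 45 insertions in PB tumours for 8.66 expected (ratio 5.20, interval 3.79 to 6.95), and it remained called. With all such positions left out it had 37 for 8.28 expected (ratio 4.47, interval 3.15 to 6.16), and it was called too. Without PB tumour 3 the ratio was 7.10, since the other samples at the position still counted. Why so many samples list that position was not tested.

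**Figure D5:**
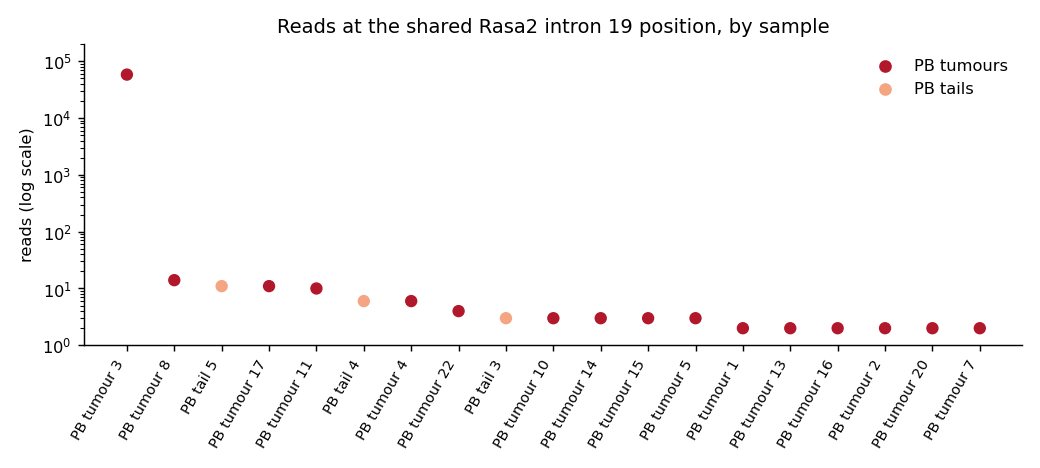
Reads (y axis, log scale) at the Rasa2 intron 19 position in the 19 samples that list it (x axis), coloured by group. PB tumour 3 stands at 57873 reads and the other 18 samples between 2 and 14.

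Read numbers give the weight of an insertion within its sample. Among the 100 most covered insertions of their sample were 10 of the 365 member insertions. This was near the share over all kept insertions, in genes or not, which was between 1.93% and 2.61% in the 4 groups. Rasa2 in PB tumour 10 ranked highest, at place 4 with 706 reads, 0.832% of that tumour's reads; the site is the intron 5 sequence above, antisense to the gene. Rasa1 in PB tumour 21 had 1673 reads, 1.59% of the reads and the largest share of any member insertion, at place 18 in intron 1 and in the sense of the gene. Nf1, by contrast, never rose above place 53 in a tumour (90 reads in PB tumour 26), while in PB tail 12 it reached place 29 with 143 reads. In SB tumours the best placed insertion of a member was one of Map2k1, at place 169 with 36 reads.

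Summed reads per gene did not give a usable test between tumours and tails. The edgeR test on reads called 6.91% of genes higher in PB tumours and 0.973% higher in SB tumours, and of the members it called Map2k1 in PB (log2 fold change 4.71, SE 1.61, adjusted p = 0.0378). On simulated data, however, it made 181 false calls in PB against 14 of 200 changed genes recovered. With limma on log2 values of the scaled reads no member was called (Map2k1 adjusted p = 0.416). On simulated data limma recovered only 4 of 200 changed genes in PB and 0 of 200 in SB. Its lack of a call therefore decides nothing about Map2k1. Simulated reads were scaled by the real library sizes for edgeR and by their own totals for limma. PB tumour 17 alone had 563 reads in intron 1 of Map2k1, 0.419% of its reads.

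The last comparison was the strand of the transposon relative to the gene. Which transposon end the file's strand refers to is not stated, so sense and antisense name the file's strand only. In PB tumours neither Nf1 (49 sense, 46 antisense) nor Rasa1 (26 sense, 21 antisense by the gene column) nor Rasa2 (33 sense, 32 antisense) leaned to a strand, and no gene of 3756 was called (0%, exact sign-flip permutation test over samples, 106 at unadjusted p below 0.05). With each shared position counted once, 15 PB tumours had more antisense and 4 more sense insertions in Rasa2 (exact permutation test, unadjusted p = 0.0057, adjusted p = 1).

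In SB tumours Nf1 insertions lay mostly antisense. There were 16 antisense and 3 sense, 7 tumours had more antisense and none had more sense (exact permutation test, unadjusted p = 0.0156, adjusted p = 1), and no gene of 320 was called (0%, 6 at unadjusted p below 0.05). In SB tails Nf1 had 7 antisense and 3 sense. Rasa1 had 10 antisense and 4 sense in SB tumours. Over all genes 54.0% of gene insertions of SB tumours were antisense. With 7 tumours the unadjusted p for Nf1 is the smallest the exact test can give. Over 320 genes such a value cannot pass the adjustment by itself. The adjusted p therefore does not show that the strands of Nf1 were even.

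The other genes of the pathway, in 7 lists of 56 genes, showed which further components were hit. Of 52 with motif sites outside the chromosomes left out, 8 were called in PB tumours, 1 in PB tails, 4 in SB tumours and none in SB tails. Over all genes the shares called in these groups were 4.85%, 1.18%, 0.39% and 0.189%. The lists were chosen with earlier results of these data known, so their counts are a description. Every selection call in them is by the Wald test. The exact Poisson test called fewer genes in every group and ended the SB call of Nf1. Its results for the listed genes are not given here. None of 5 Ras GTPases other than Nras was called, 1 of 6 exchange factors was (Rasgrp3), and 1 of 7 GTPase activating proteins was (Rasa3).

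Cblb, a ubiquitin ligase that restrains antigen receptor signalling, had the most insertions of these genes, 94 in 28 PB tumours for 15.7 expected (adjusted Wald p = 2.33e-63) and 20 in 6 SB tumours for 3.51 expected (adjusted p = 8.85e-11). It was the one pathway gene also called in PB tails, with 17 for 4.86, and SB tails had 10 for 5.04. Its relative Cbl was called in SB tumours alone, with 9 for 1.82 expected (adjusted p = 0.0198), and had 1 for 1.85 in SB tails. Grb2, the adaptor that brings SOS1 to receptors, had 35 for 5.65 in PB tumours and 2 for 1.43 in PB tails.

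Spred1, which works with neurofibromin to restrain Ras, had 54 insertions for 6.84 expected in 24 PB tumours and 9 for 1.48 in 7 SB tumours, and was called in both. Its relative Spred2 had 23 for 7.95 in PB tumours. Rasa3, another GTPase activating protein, had 19 for 3.50 in 10 PB tumours and 10 for 1.44 in 6 SB tumours, and was called in both. Rasgrp3, an exchange factor related to RASGRP1, had 21 for 6.54 in 14 PB tumours. Ratios in PB tails were 4.17 for Spred1, 3.98 for Spred2, 5.11 for Rasa3 and 0.531 for Rasgrp3, and none was called there. In PB tumours these ratios were 7.89, 2.89, 5.43 and 3.21. In SB, Spred1 was at 6.08 in tumours and 2.53 in tails, and Rasa3 at 6.95 and 1.69.

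Elk3, a transcription factor regulated by ERK, was the one pathway gene whose PB tumours and tails differed. It had 25 insertions in 16 PB tumours for 3.26 expected and none in PB tails, and the fitted log2 fold change was 2.85 (SE 0.782, edgeR adjusted p = 0.013), a value that depends on the prior count. Against the limit that a count of 0 allows, 3 insertions over the 12 tails, its observed rate in PB tumours was 2.56-fold higher. This value takes the 25 tumour insertions as exact and is no lower bound, since their counting error and the spread between samples are left out. Of the 56 genes 21 were tested in PB, where the other 20 did not pass, and 11 in SB, where none did. Over all genes tested 2.02% were called higher in tumours in PB and 0.708% in SB. Cblb was at 0.73 (SE 0.407) and Spred1 at 0.81 (SE 0.497) in PB, while Rasa3 was at -0.04 (SE 0.583).

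Across the 30 PB tumours, the genes whose insertion rate was most like that of Nf1 were Lama2 on chromosome 10 (Pearson r = 0.62), Dapp1 on chromosome 3 (r = 0.57) and Nup205 on chromosome 6 (r = 0.56), among 2054 genes hit in at least 10 tumours. These are the highest of many values, and the points share each tumour's library and its depth.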

How the data were processed

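The authors deposited one table with a line per insertion of 64 samples, giving position on mm10 (GRCm38), gene, strand and the number of reads as raw counts. Sheared DNA was enriched for transposon junctions by splinkerette PCR, and paired reads of 75 bp were made; aligner, insertion caller and read filters are not given in the sources used here. No line had fewer than 2 reads. The table's 1 other column of values per sample, a normalized coverage, was not used. PCR reads carry no molecular identifiers, so intervals cover counting error only. The p-values of the selection test come from insertions summed over the samples of a group and measure counting error only. Nothing says whether litters or runs were shared, so the p-values of the other tests measure the spread between these samples.

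Positions were moved to the TTAA (PB) or TA (SB) covering them or nearest within 5 bp, lines farther away were left out, and each site was counted once per sample. Chromosome 14, taken as the donor because it had the most insertions per Mb, and the sex chromosomes were left out. Sample names in the table were written joined or separated, with 22 of 30 PB tumours but 5 of 12 PB tails joined, and all 11 SB tumours but 7 of 11 SB tails. Gene bodies were the spans of curated RefSeq transcripts. Selection used a one-sided Wald test with Bonferroni correction over all genes. Tumours and tails were compared with edgeR quasi-likelihood tests on insertions (at least 10 over the samples fitted, kept insertions as library size) with Benjamini-Hochberg adjustment, and DESeq2, limma (on log2 of depth-scaled reads plus a pseudocount of 1) and Fisher's exact test were alternatives. The SE of a fold change was derived from the F statistic. Strand was tested by exact sign flips over samples (at least 6 with a difference).

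On simulated data the Wald test recovered 177 of 200 genes raised 5-fold in PB tumours, with 3 false calls. Those counts were Poisson draws from the motif expectation, without insertion preferences or added spread between samples. The number of false calls therefore holds for that setting only and not for the real data. With edgeR 73 of 200 genes changed 4-fold were recovered in PB (3 false) and 117 in SB (10 false). The 8 members and the pathway lists were chosen with earlier results of these data known. Named were all members, pathway genes called in tumours or in a comparison with tails (at most 12), and the 3 genes most like Nf1. Some results under this rule are not reported here. Evi2, Omg, AU040972, Ccnh and Ndufb2 were named after their values were seen. Sites were read from GRCm38.p6. Python 3.11.15, numpy 2.4.6, pandas 2.3.3, scipy 1.17.1, matplotlib 3.10.9, R 4.3.3, edgeR 4.0.16, DESeq2 1.42.0 and limma 3.58.1 were used.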

Additional observations from a re-analysis of the deposited data

How the results depend on the processing

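The p-values rest on samples whose shared litters or runs are not known and the expectation counts motifs alone. No paired analysis was made because no tumour and tail have the same full code in their titles. Sample titles share leading codes between some tumours and tails, but what these codes stand for is not stated, and they were not used as a block. The settings that left out PB tumour 3, each sample in turn, or the nested genes, the one that counted a shared position once, and limma on reads were chosen after seeing the data. The cause of a changed call was not tested.

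The 3 members called in PB tumours were still called in all 30 fits that left out 1 tumour. In SB tumours the 2 called members became 1 with the exact Poisson test, with at least 10 reads, with the sites of gene bodies as background, without the nested genes and without each gene's most hit sample, 0 by presence per sample, and 1 to 2 when 1 tumour was left out. By presence Nf1 could not have been called in SB tumours, as stated above. In PB tails Benjamini-Hochberg adjustment called 2 members in place of 0. Between PB tumours and tails the 1 member called became 0 with no filter, at least 10 reads, positions of several samples left out or counted once, the nested genes left out, joined names only, name form as a covariate and Fisher's exact test, and was 0 to 1 (called in 34 of 42 fits) when 1 sample was left out. In reads the 1 member called in PB became 0 by DESeq2, by limma and with joined names, and 2 with TMM scaling or no filter, and no filter gave 2 in SB in place of 0.

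Calls over all genes moved more. In PB tumours 1094 genes became 632 with the exact test, 2755 by Benjamini-Hochberg, 485 by presence, 468 with at least 10 reads, 636 with gene bodies and 680 without the most hit sample. The same settings other than the read minimum gave, in PB tails, 81, 822, 90, 147 and 92 in place of 267 (72 with joined names), in SB tumours 33, 303, 17, 58 and 28 in place of 93, and in SB tails 13, 164, 9, 25 and 12 in place of 45 (77 by the gene column). Between PB tumours and tails 142 became 73 by DESeq2, 70 with no filter, 28 with joined names and 6 by Fisher's exact test, and in SB 10 became 2 by DESeq2 and 1 by Fisher's test. In reads 360 in PB became 127, 52, 5162 and 2 by DESeq2, limma, no filter and joined names, and 13 in SB became 5, 2, 4844 and 5, or 7 with shared positions counted once.

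Direction turned for members that were not called. The ratio of observed to expected insertions crossed 1 for Braf in PB tumours with gene bodies as background (0.937). In PB tails it did so for Nf1 without the nested genes (0.98) and with joined names (0.572), for Nras with joined names (0), for Braf by presence (1.03) and with at least 10 reads (1.24), and for Sos1 with gene bodies (0.871), without the most hit sample (0.918) and with joined names (0.876). In SB tumours Rasa2 and Map2k1 fell to 0.932 and 0.83 without their most hit sample, and Rasgrp1 rose to 1.46 with at least 10 reads. In SB tails Nf1 and Map2k1 stood at 0.971 and 0 with joined names, and Nras at 0 with at least 10 reads and without its most hit sample. The log2 fold change in reads turned for Braf in PB by DESeq2 (1.09) and TMM (0.96), and for Nf1 in SB by limma (0.25) and with joined names (0.86). The interaction of Sos1 turned to -0.24 by DESeq2. Sense minus antisense insertions in PB tumours turned to -6 for Nf1 and -4 for Rasa2 with at least 10 reads, to -4 and -13 without positions of several samples, to -19 for Rasa2 with each counted once, and to 1 for Sos1 without PB tumour 3. Of the other single values 562 kept their direction and call, 18 lost a call and 4 gained one.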

Other observations

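The strands of Nf1 insertions were counted by stretch of the gene. In intron 1 the 13 insertions of PB tumours were 11 sense and 2 antisense, in 11 tumours, while the 6 of SB tumours were 1 sense and 5 antisense. Inside the nested genes PB tumours had 14 in the sense of Nf1 and 22 antisense, and outside them 35 sense and 24 antisense. These counts were noticed in the data and were not tested.

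Among the member insertions 30 positions were found in several samples, 13 in Nf1, 9 in Rasa2, 5 in Rasa1 and 1 each in Map2k1, Rasgrp1 and Sos1. At 13 of them the samples had insertions on both strands. The Nf1 intron 5 site printed above was hit in 3 PB tumours, in the sense of the gene in each, with 72, 8 and 2 reads.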
